A study of Mus musculus with 2 samples.

Results

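Genes of the WNT pathway were examined in regenerating mouse tibialis anterior muscle: the secreted ligands, their receptors and co-receptors, the intracellular effectors and the feedback genes. The secreted antagonists were left out. The members were a list of 48 gene symbols, each represented by its probe set of highest mean. For 47 of them a probe set annotated to that gene alone was found, among 19938 genes in all. Tcf7 had none in the annotation used and was not analysed here.

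There were 2 arrays, 1 per genotype. The wild type pool (Mef2a +/+) and the knockout-labelled pool (Mef2a -/-) each held RNA of the injured muscles of 5 animals, and both groups were of mixed 129Sv/C57BL6 background, aged 2 to 4 months and of both sexes. Every muscle had been injected with 50 µl of 10 µM cardiotoxin, a venom toxin that destroys fibres and spares the satellite cells, and was taken on day 7, so that no uninjured muscle was part of the comparison. MEF2A is a transcription factor that drives muscle genes, and the comparison asks which transcripts differ when its gene is knocked out. With 1 pool per genotype there are no replicates. No spread between mice or arrays can be given, no test was possible, and every difference below compares these 2 pools. The Mef2a probe set itself read 8.92 in the wild type and 9.06 in the knockout-labelled pool. The part of the gene that was deleted is not given in the labels, so this value does not check the genotypes, and directions rest on the labels.

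WNT proteins are secreted, lipid-modified signals. In the canonical branch a ligand joins a frizzled receptor to the co-receptor LRP5 or LRP6, which stops the destruction complex of AXIN and APC from removing beta-catenin, and beta-catenin then acts with TCF and LEF factors on target genes. Several of those targets, such as Axin2, Nkd1, Rnf43 and Znrf3, dampen the signal in turn. Noncanonical ligands act through frizzled proteins, ROR receptors or RYK on cell polarity and calcium without beta-catenin. In injured muscle both branches are known to act on satellite cells, on the fibro-adipogenic progenitors between the fibres, and on macrophages. The assignment of a ligand to a branch is by its usual use and depends on the cell.

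Values are log2 expression values of the authors' RMA summary, and differences are knockout-labelled minus wild type on that scale. A gene was called measurable where at least 1 of its 2 values was at or above 4.40, the median over the whole table, here named the floor. This floor is a convention and not a detection limit. Of the 47 members, 33 reached it and 14 did not. The members under the floor read between 2.09 and 4.27. Differences of genes near or below the floor have no error estimate here and are weakly bounded.

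WNT genes as a group did not lean to either side. Among the 33 measurable members 16 were higher in the knockout-labelled pool, 16 were lower, and Fzd2 read the same in both to the last digit. The median difference was 0.00, against 0.03 over all 11787 measurable genes, of which 53.3% were higher and 44.5% lower. At least 1.5-fold higher were 3 members, the receptor gene Fzd1, the ligand gene Wnt5a and the feedback gene Nkd2, where the share of all measurable genes past that limit was 6.45%. At least 1.5-fold lower were 2 members, the ligand gene Wnt6 and the receptor gene Fzd9, where the share of all measurable genes was 1.9%. As shares of the members these counts were 9.09% and 6.06%. Wnt6 reached the floor through its wild type value alone. With the floor set on the mean of both values the lower count was 1 of 32 (Fzd9), against 1.71% of all genes. With the loess trend on level removed it was 1 of 33 (Wnt6), against 1.9%. None of the members reached 2-fold, a limit that 1.7% of measurable genes passed upward and 0.187% downward. The 5 members past 1.5-fold thus were 2 ligands, 2 receptors and 1 feedback gene, and went both ways.

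**Figure D1:**
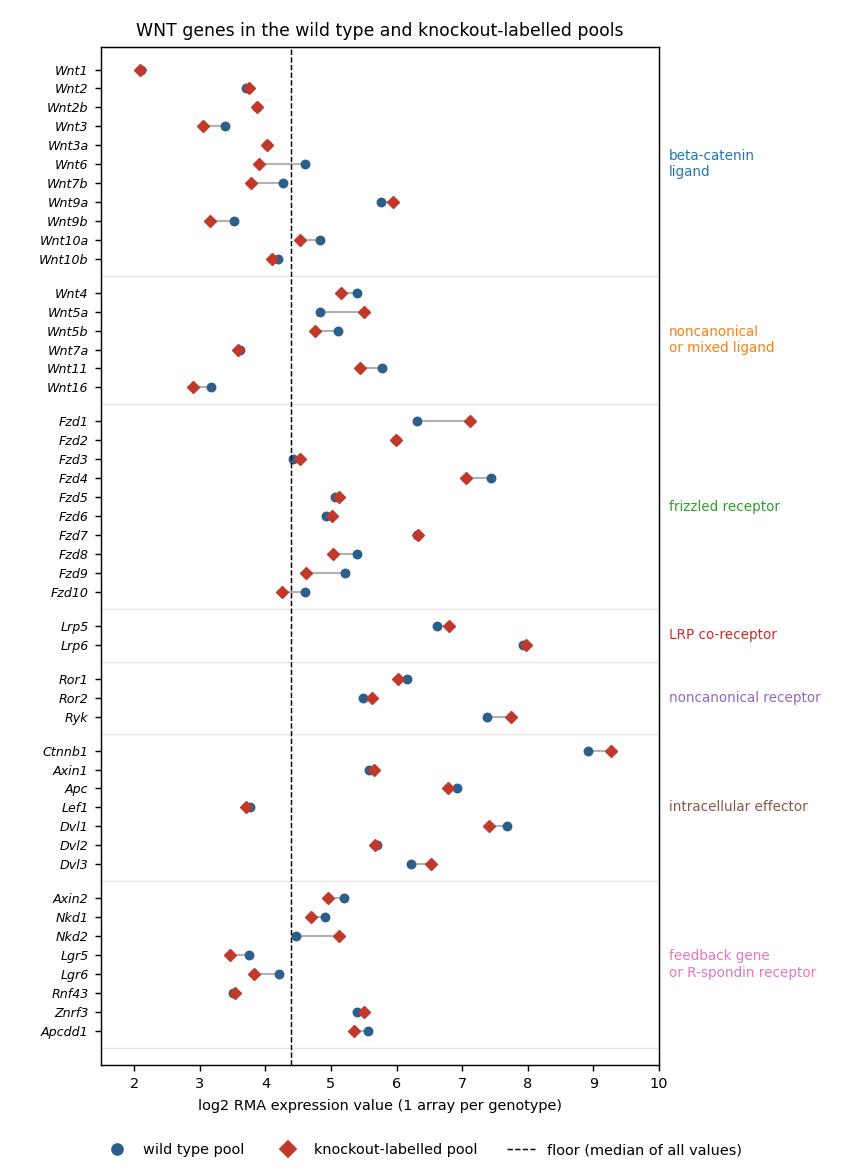
Each row is a WNT gene, grouped by role, with its log2 RMA value in the wild type (blue circle) and the knockout-labelled pool (red diamond), 1 array each; the dashed line is the floor of 4.40. Most of the beta-catenin ligands lie left of the floor, all of the frizzled receptors reach it in at least 1 pool, and the longest bars belong to Fzd1, Wnt6, Wnt5a, Nkd2 and Fzd9.

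Most ligand genes of the beta-catenin branch were too low to compare. Of 11, only Wnt6, Wnt9a and Wnt10a reached the floor. Wnt6, an epithelial and paraxial mesoderm signal, read 4.60 in the wild type and 3.90 in the knockout-labelled pool, which is below the floor. Its difference of -0.70, or 1.62-fold, was the lowest of all members. Of 2821 genes with a mean within 0.5 log2 units of its own, 1.21% were lower by at least as much. Wnt10a, a ligand of skin and tooth development that also restrains fat formation, read 4.84 and 4.52 in the same order, a difference of -0.31. Wnt9a, a ligand of joint and muscle development, went the other way, with 5.75 in the wild type and 5.94 in the knockout-labelled pool (0.19).

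Below the floor lay Wnt1, Wnt2, Wnt2b, Wnt3, Wnt3a, Wnt7b, Wnt9b and Wnt10b. Wnt7b read 4.27 and 3.78, the largest gap among these, and Wnt3a (4.03) and Wnt2b (3.86) read the same in both pools. Equal values are not rare in this table, as 5.91% of all genes had them. Wnt10b, which keeps muscle precursors from turning to fat, read 4.20 in the wild type and 4.10 in the knockout-labelled pool. The levels of Wnt1, Wnt3a and the other low ligands therefore say nothing on a difference between the pools.

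Several WNT genes lie side by side in the genome. Among protein-coding genes of the RefSeq order, 4 pairs of members are direct neighbours. Wnt6 and Wnt10a differed by -0.70 and -0.31, Wnt9b and Wnt3 by -0.36 and -0.34, Wnt10b and Wnt1 by -0.09 and -0.01, and Wnt3a and Wnt9a by 0.00 and 0.19. In the first pair both genes were measurable and both were lower. In the second and the third neither was.

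Of the 4 measurable noncanonical or mixed ligands, Wnt5a was higher and Wnt4, Wnt5b and Wnt11 were lower. Wnt5a, the ligand of ROR and frizzled receptors that is made by mesenchymal cells and by activated macrophages, read 4.83 in the wild type and 5.51 in the knockout-labelled pool, 1.60-fold higher. Of 3065 genes of like level 4.05% were higher by at least as much. The closely related Wnt5b read 5.11 and 4.75 in the same order, a difference of -0.36. Wnt11, which orders the elongation of muscle fibres in the embryo, read 5.78 and 5.44, a difference of -0.34. The 2 paralogs Wnt5a and Wnt5b were thus on opposite sides.

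Wnt4, a ligand of developing muscle and kidney, was the only member with more than 1 probe set. The probe set of highest mean read 5.39 and 5.16 (-0.23). The other lay below the floor at 4.28 in both pools, with a difference that rounds to -0.00. With the mean of both, the difference of Wnt4 was -0.12. Wnt7a, known for expanding satellite cells through FZD7, read 3.61 and 3.59, and Wnt16 read 3.18 and 2.90, both below the floor.

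Taking both branches, 5 of the 7 measurable ligands were lower in the knockout-labelled pool and their median was -0.31. Of all measurable genes 44.5% were lower, a share that is not matched for level. Over all 17 ligands 12 were lower, or 70.6%, against 52.8% of all genes. That count rests mostly on values below the floor. It became 9 with the loess trend on level removed and 14 with differences centred on their median. The rise to 14 comes from Wnt2b and Wnt3a, equal in both pools, which centring moves below 0. The 52.8% of all genes is without centring or loess, so it does not match these 2 counts.

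**Figure D2:**
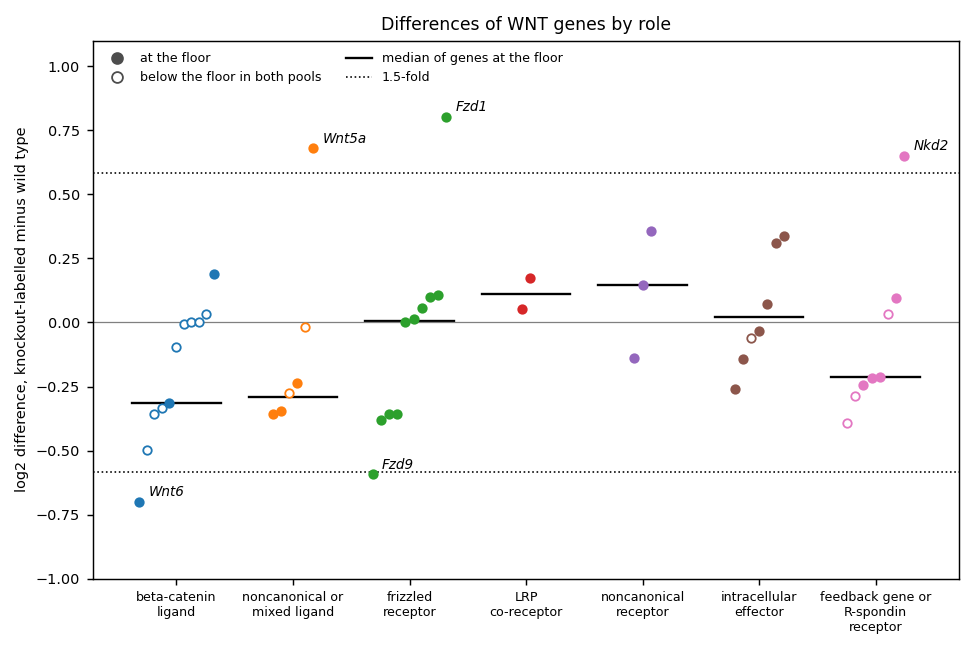
Each point is a WNT gene, placed by role, and the vertical axis is the log2 difference, knockout-labelled minus wild type; open points are below the floor in both pools, black bars are medians of the genes at the floor and dotted lines mark 1.5-fold. Fzd1 (0.80), Wnt5a (0.68) and Nkd2 (0.65) lie above the upper line, and Wnt6 (-0.70) and Fzd9 (-0.59) below the lower.

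The 10 frizzled genes, which encode the receptors of both branches, all reached the floor. Their median was 0.01, or -0.02 with centred differences and -0.04 with the loess trend removed, so its sign depended on the scaling. Fzd1 read 6.31 in the wild type and 7.12 in the knockout-labelled pool. Its difference of 0.80, or 1.74-fold, was the highest of all members, and 3.19% of 3136 genes of like level were higher by at least as much. Its closest relatives did not follow. Fzd2 read 5.99 in both pools, and Fzd7, the receptor of WNT7A on satellite cells, read 6.31 and 6.32. The differences of those 2 genes of the Fzd1 subfamily were thus 0.00 and 0.01.

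The subfamily of Fzd4, Fzd9 and Fzd10 was lower throughout, where 44.5% of all measurable genes were lower. Fzd4, which binds the ligand Norrin as well as WNT proteins and is a receptor of vessel endothelium, read 7.43 in the wild type and 7.05 in the knockout-labelled pool, a difference of -0.38. Of 2314 genes of like level 4.58% were lower by at least as much. Fzd9 read 5.21 and 4.62, a difference of -0.59 or 1.51-fold, just past the limit, and with the loess trend removed it was -0.56 and no longer past it. Fzd10 read 4.60 and 4.25, the latter below the floor (-0.36). The 3 kept their sign with centred differences and with the loess trend removed. Both shifts are small beside these differences and could not have reversed a sign. The grouping into subfamilies was made after the values were seen and carries no test.

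Of the remaining frizzled genes, Fzd8 read 5.40 in the wild type and 5.04 in the knockout-labelled pool (-0.36), while Fzd5, the other member of its pair, differed by 0.06. Fzd3 and Fzd6, receptors of planar cell polarity, differed by 0.11 and 0.10.

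Co-receptors and noncanonical receptors all lay within 1.5-fold. Lrp6 read 7.93 in the wild type and 7.98 in the knockout-labelled pool, and Lrp5 read 6.62 and 6.79, differences of 0.05 and 0.17. Ryk, a receptor with an inactive kinase domain that binds WNT5A among others, read 7.38 and 7.74, a difference of 0.36 that 16.3% of like-level genes reached. The receptor tyrosine kinases Ror1 and Ror2, the main partners of WNT5A, went opposite ways by small amounts, with 6.16 and 6.03 for Ror1 (-0.14) and 5.48 and 5.63 for Ror2 (0.15). The higher value of Wnt5a had no difference of like size beside it in Ror1 or Ror2.

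**Figure D3:**
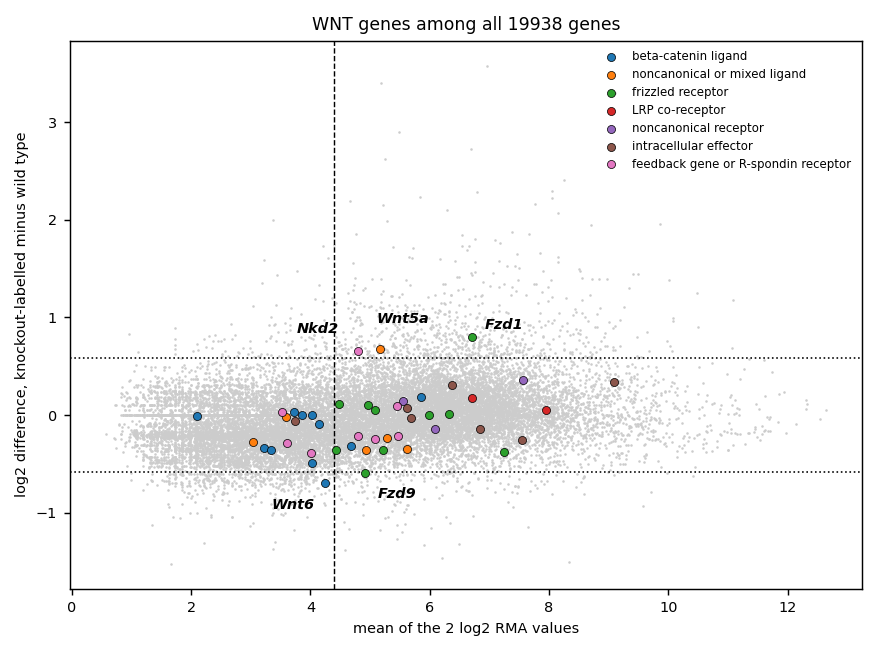
Grey points are all 19938 genes and coloured points the WNT genes by role; the horizontal axis is the mean of the 2 log2 RMA values, the vertical axis the log2 difference, the dashed line the floor and the dotted lines 1.5-fold. The WNT genes spread over the same band as the other genes, and the 5 named genes lie at its edge and not beyond it.

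For 34 of the 48 members, start sites with flanking sequence were found in the RefSeq promoter table of GRCm38.p6, 43 sites in all. Of the 5 genes past 1.5-fold, Fzd1, Nkd2, Wnt6 and Fzd9 are among them. Their 250 bases before the start are shown because these genes carry the differences, with the 2 higher genes first. They lie at chr5:4758217-4758466, minus strand (Fzd1), chr13:73847632-73847881, minus strand (Nkd2), chr1:74771642-74771891, plus strand (Wnt6) and chr5:135251048-135251297, minus strand (Fzd9). Capitals mark the GC box GGGCGG on either strand.
Fzd1: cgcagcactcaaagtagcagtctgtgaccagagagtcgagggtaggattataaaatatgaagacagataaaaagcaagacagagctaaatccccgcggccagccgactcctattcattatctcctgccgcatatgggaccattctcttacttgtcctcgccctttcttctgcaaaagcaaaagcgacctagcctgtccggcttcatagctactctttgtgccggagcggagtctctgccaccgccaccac
Nkd2: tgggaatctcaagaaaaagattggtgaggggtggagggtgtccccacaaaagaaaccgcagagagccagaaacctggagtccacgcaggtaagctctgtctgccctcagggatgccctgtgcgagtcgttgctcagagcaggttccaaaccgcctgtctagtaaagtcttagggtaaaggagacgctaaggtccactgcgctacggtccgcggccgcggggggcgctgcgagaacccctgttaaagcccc
Wnt6: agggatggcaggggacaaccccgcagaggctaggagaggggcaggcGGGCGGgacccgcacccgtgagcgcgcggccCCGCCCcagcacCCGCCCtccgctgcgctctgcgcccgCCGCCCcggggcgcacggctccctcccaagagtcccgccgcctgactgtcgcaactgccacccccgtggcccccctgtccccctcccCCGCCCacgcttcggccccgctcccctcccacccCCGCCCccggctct
Fzd9: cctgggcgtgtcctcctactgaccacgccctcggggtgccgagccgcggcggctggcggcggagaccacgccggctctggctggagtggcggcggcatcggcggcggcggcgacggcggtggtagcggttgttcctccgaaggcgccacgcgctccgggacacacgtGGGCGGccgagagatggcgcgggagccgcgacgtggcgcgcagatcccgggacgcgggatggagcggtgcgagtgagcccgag

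The promoters of the 2 higher genes held no GC box, that of Wnt6 held 6 and that of Fzd9 held 1. Their GC content was 51.2% for Fzd1, 58.4% for Nkd2, 79.6% for Wnt6 and 76.4% for Fzd9. The median was 68% over the 43 member sites and 52.4% over all 32817 sites of the table. A GC box was found at 76.7% of member sites and at 32.7% of all sites. A match is a description of the letters and not a binding site.

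The MEF2 consensus, searched on both strands in the same windows, was found at none of the 43 member sites and at 2.92% of all sites. This says only that those letters are not in the 250 bases before these starts. The TCF/LEF core ATCAAAG, on either strand, was found at 2 member sites, or 4.65%, against 3.21% of all sites. Both were noncanonical ligands and neither was a feedback gene. They are shown with the match in capitals, Wnt5b at chr6:119449387-119449636, minus strand, and Wnt11 at chr7:98834862-98835111, plus strand. The match began 71 bases before the start in Wnt5b and 51 bases before it in Wnt11.
Wnt5b: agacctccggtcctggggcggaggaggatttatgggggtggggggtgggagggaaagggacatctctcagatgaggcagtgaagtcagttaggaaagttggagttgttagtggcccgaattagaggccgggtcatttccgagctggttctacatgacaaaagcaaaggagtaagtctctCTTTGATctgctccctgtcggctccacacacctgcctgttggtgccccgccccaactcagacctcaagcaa
Wnt11: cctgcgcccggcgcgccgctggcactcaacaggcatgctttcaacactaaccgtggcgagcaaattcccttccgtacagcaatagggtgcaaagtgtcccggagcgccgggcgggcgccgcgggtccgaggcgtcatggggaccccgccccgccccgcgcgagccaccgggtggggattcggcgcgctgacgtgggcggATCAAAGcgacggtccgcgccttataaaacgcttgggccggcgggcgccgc

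The intracellular effectors all lay within 1.5-fold. Ctnnb1, which encodes beta-catenin, read 8.92 in the wild type and 9.26 in the knockout-labelled pool, a difference of 0.34 that 22.7% of like-level genes reached. Of the dishevelled genes, which relay the signal from frizzled receptors in both branches, Dvl1 read 7.68 and 7.41 (-0.26), Dvl2 read 5.70 and 5.67 (-0.03), and Dvl3 read 6.22 and 6.53 (0.31). The 3 paralogs thus differed in sign. The scaffold genes of the destruction complex differed little, Apc by -0.14 and Axin1 by 0.07. Lef1, a nuclear partner of beta-catenin, lay below the floor at 3.77 and 3.71. The median of the 6 measurable effectors was 0.02, and it turned to -0.01 with centred differences and -0.00 with the loess trend removed.

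The measurable feedback genes were split. Nkd2, an inhibitor that binds dishevelled, read 4.47 in the wild type, just above the floor, and 5.12 in the knockout-labelled pool. It was higher by 0.65, or 1.57-fold, and 3.62% of 2843 genes of like level were higher by at least as much. Its paralog Nkd1, a target of beta-catenin in many tissues, read 4.91 and 4.69, a difference of -0.22. Axin2, the most widely used reporter gene of the canonical branch, read 5.20 and 4.96, a difference of -0.24, and 20.4% of like-level genes were lower by at least as much.

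Apcdd1, a membrane inhibitor of the pathway, read 5.57 in the wild type and 5.35 in the knockout-labelled pool (-0.21). Znrf3, a ubiquitin ligase that removes frizzled receptors from the membrane, read 5.40 and 5.50 (0.09). Its partner Rnf43 and the R-spondin receptor genes Lgr5 and Lgr6, also stem cell markers in other tissues, lay below the floor in both pools, at 3.46 to 4.21 over the 3 genes. Among the 5 measurable genes of this role 2 were higher and 3 lower, and the median was -0.21. The directions of Nkd2 and Axin2 were opposite.

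Of the 33 measurable members, 14 differed by 0.3 or more in either direction, 6 of them higher and 8 lower. The other 19 differed by less. The 14 were 42.4%, against 29.8% of all measurable genes, a share that is not matched for level. At the level of Fzd10 (-0.36) 14.9% of genes were lower by at least as much, and at the higher level of Fzd4 (-0.38) 4.58%.

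The rest of the pathway was described from a list of 50 genes, of which 42 were measurable. At least 1.5-fold higher were 2, or 4.76%, and none was 1.5-fold lower, against 6.45% and 1.9% of all measurable genes. Their median was 0.06. Both higher genes belong to the targets of beta-catenin that are also driven by other signals. Cd44, a hyaluronan receptor abundant on macrophages, read 6.42 in the wild type and 7.40 in the knockout-labelled pool (1.98-fold). Ccn5, a matricellular protein, read 6.55 and 7.14 (1.51-fold), and with the loess trend removed its difference was 0.53, under the limit.

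Among the 6 measurable genes of that group 5 were higher, including Ccnd1 (0.50), Ccn4 (0.47) and Myc (0.36), while Tnfrsf19 differed by -0.22, and the median was 0.48. Of all measurable genes 53.3% were higher. Over the 5 higher genes, from 1.77% (Cd44) to 14.7% (Myc) of like-level genes were higher by at least as much. Apart from Cd44 and Ccn5, no measurable gene of the group passed 1.5-fold. The group also held 2 genes below the floor in both pools, Sp5 (-0.19) and Notum (-0.62), and both read lower. Over all 8 genes of the group 5 were higher and 3 lower. Porcn and Wls, which lipid-modify and release the ligands, were higher by 0.27 and 0.31. The R-spondins and Lgr4, the destruction complex kinases with the tankyrases, the nuclear cofactors, the polarity genes and the DACT scaffolds had medians between -0.09 and 0.09, with none past 1.5-fold.

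**Figure D4:**
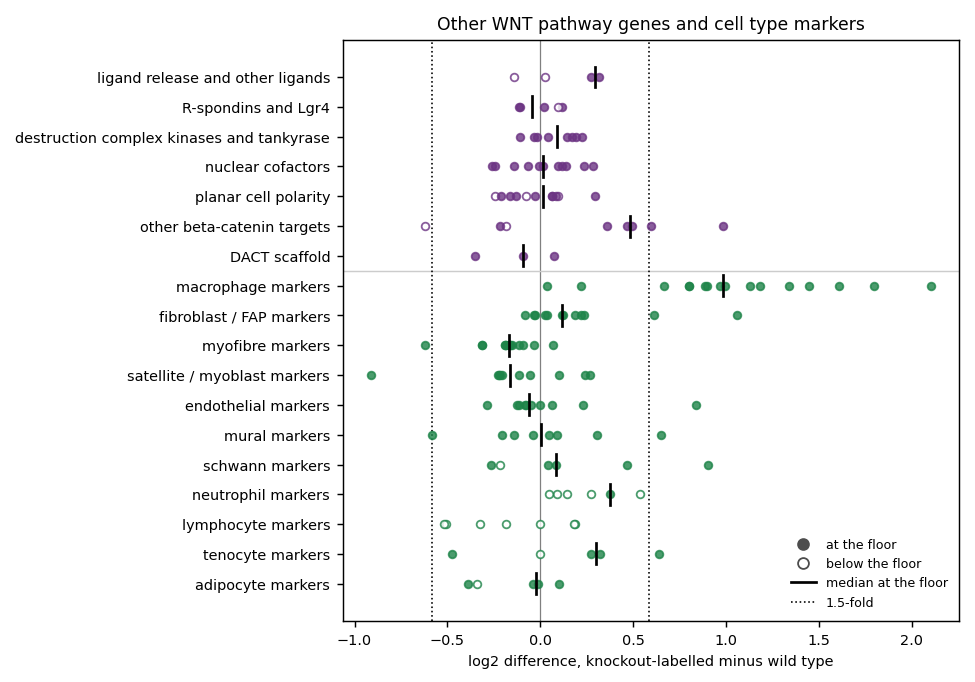
The horizontal axis is the log2 difference, knockout-labelled minus wild type, for genes of the rest of the WNT pathway (purple, upper rows) and for cell type markers (green, lower rows); open points are below the floor, black ticks are medians at the floor and dotted lines mark 1.5-fold. The macrophage markers have the rightmost median (0.98), the other beta-catenin targets a median of 0.48, and the myofibre markers one of -0.17.

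The muscle was a mixture of cells, and in such bulk RNA fewer cells of a type and less RNA per cell cannot be told apart. Its defining fibre markers were all measurable, with Acta1 at 12.56 in the wild type and 12.52 in the knockout-labelled pool. Of 16 macrophage markers, all above the floor in both pools, 14 were at least 1.5-fold higher in the knockout-labelled pool, against 6.45% of all measurable genes. None of the 16 was lower, and their median difference was 0.98. Their summed linear level was 3942 in the wild type and 8473 in the knockout-labelled pool. The 3 of highest mean value, Lyz2, Cd68 and C1qc, differed by 1.18, 1.45 and 0.89, and the 2 within 1.5-fold were Cx3cr1 (0.22) and Fcgr1 (0.04).

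Of 12 fibroblast and fibro-adipogenic progenitor markers, 2 were at least 1.5-fold higher and none lower (median 0.12, summed level 14762 and 16542). Has2 (1.06) and Thy1 (0.62) were the higher ones, while the collagen genes Col1a1, Col1a2 and Col3a1 differed by 0.23, 0.22 and 0.12. Of 14 myofibre markers, 13 were lower, against 44.5% of all measurable genes, with a median of -0.17 and summed levels of 42250 and 38363. Past 1.5-fold lower was 1 of them (Myh2, -0.62). Over these 13, from 0.23% (Myh2) to 46.2% (Ttn) of like-level genes were lower by at least as much. With the loess trend removed the difference of Acta1 was 0.02. The 10 satellite cell and myoblast markers had a median of -0.16, with Chodl (-0.91) past 1.5-fold, and the 10 endothelial markers one of -0.06, with Vwf (0.84) past it. The 4 measurable tenocyte markers had a median of 0.30, with Fmod (0.64) past 1.5-fold, and the 5 measurable Schwann cell markers one of 0.09, with Egr2 (0.91) past it. The 8 mural cell markers had a median of 0.0047, with Pdgfrb (0.65) past 1.5-fold and Abcc9 (-0.58) just within it. The 4 measurable adipocyte markers had a median of -0.02 with none past 1.5-fold. All 7 measured lymphocyte markers, and 5 of 6 neutrophil markers, lay below the floor. With 1 array per genotype, every higher gene shares its RNA with the higher macrophage markers, and every lower gene with the lower fibre markers. Such a pairing is given by the design and cannot link a WNT gene to a cell type. The part of the cell mixture in the differences of the WNT genes was not tested.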

How the data were processed

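Per the labels' protocols, Trizol extracts of 5 muscles per genotype were pooled at equal concentration, labelled with biotin and put on 1 Affymetrix array. The authors deposited log2 values; the submitters' processing notes name RMA and Affymetrix Expression Console. Their versions and settings, and a genome build, were not given in the sources used here. RMA makes the arrays' distributions nearly equal (sorted values differ by at most 0.139), so a shift shared by most genes cannot be seen. The number of arrays limits the precision.

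Of 35557 probe sets, 21789 had 1 gene symbol in the platform annotation, 1621 several and 12147 none; only the first were used. The RefSeq table of GRCm38.p6 held 21698 of their gene identifiers, and 0 symbols needed an update. The highest-mean probe set stood for a gene. Differences, limits of 1.5-fold and 2-fold and the floor were computed with pandas 2.3.3 and numpy 2.4.6 under Python 3.11.15, and figures drawn with matplotlib 3.10.9. With 1 array per genotype no test was run. The code that counts genes was checked on simulated data with known differences, which gives no error rate for these pools. Genes named were all members past 1.5-fold or differing by 0.3, the 2 of highest level per role, and the largest of the other pathway genes past 1.5-fold; others were named after their values were seen. The members and gene lists were chosen with earlier results of these data known. Alternatives were median-centred differences, a loess trend on mean level removed (span 0.3, statsmodels 0.14.6), averaging a gene's probe sets, other floors (75th percentile of all values, 6.18) and fold limits of 1.3 and 2.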

Additional observations from a re-analysis of the deposited data

How the results depend on the processing

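The same 3 higher members (Wnt5a, Fzd1 and Nkd2) were found with centred differences, the loess trend removed, the mean of all probe sets, no floor, a floor on the mean of both values and a limit of 1.3-fold. Each of the 3 has 1 probe set, so the mean of probe sets could not alter them. Removing the floor or lowering the limit keeps every gene already called, so those settings could not drop them either. Higher among all genes were 5.89% with centred differences, 5.85% with the loess trend removed and 6.41% with the mean of probe sets. With no floor that share was 4.25%, and with the floor on the mean 6.34%. At 1.3-fold 3 of 33 members (9.09%) were higher and 3 were lower (Wnt6, Fzd9 and Fzd4). Of all measurable genes 13.5% were higher and 7.33% lower at that limit. Under a floor at the 75th percentile, which 10 members reached, the higher count was 1 (Fzd1), against 8.4% of all genes. At 2-fold it was 0, against 1.7%. The 2 lower members became 1 with the loess trend removed (Wnt6) and 1 with the floor on the mean (Fzd9). They became 0 both under the 75th percentile floor and at 2-fold. Lower among all genes were 1.9%, 1.71%, 1.5% and 0.187% in the same order. The median of the members was -0.026 with centred differences, -0.044 with the loess trend removed, 0.0070 with the floor on the mean, 0.11 with the 75th percentile as floor and -0.032 with no floor. Of the other pathway genes, 1 was higher with centred differences, 1 with the loess trend removed, 4 at 1.3-fold and 0 at 2-fold. The count of lower ones was 1 with no floor, where 3.1% of all genes were lower. Of the 14 members differing by 0.3 or more, none changed sign with the loess trend removed, and 1 call was lost (Fzd9, -0.56). Centring moves every difference by only 0.026, and each of the 14 has 1 probe set. Neither centring nor the mean of all probe sets could therefore change a sign, and their outcome adds nothing. No paired analysis was possible because each genotype has 1 array. Leaving out a replicate could not be done for the same reason. Of the 5 members past 1.5-fold, Wnt6, Nkd2 and Fzd9 each had a value within 0.3 of the floor or below it.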

Other observations

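Some paralogs of the pathway read on opposite sides. Wnt5a (0.68) and Wnt5b (-0.36), Nkd2 (0.65) and Nkd1 (-0.22), Dvl3 (0.31) and Dvl1 (-0.26), and Ror2 (0.15) and Ror1 (-0.14) differed in sign. The pairs were picked after the values were seen, and with 1 pool per genotype none of these gaps was tested.

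Notum, a secreted enzyme that removes the lipid from WNT proteins, is not a member and was listed with the other beta-catenin targets. It read 3.95 in the wild type and 3.33 in the knockout-labelled pool, below the floor in both (-0.62).

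Across the 21 measurable members with a start site in the promoter table, the GC content before the start and the difference had a Pearson r of -0.39 and a Spearman rho of -0.31. Over 9391 genes of all kinds the values were -0.01 and 0.03. The 21 members include Fzd1, Nkd2, Wnt6 and Fzd9, so these values do not add to what was said of their promoters. Genes are not independent replicates, and the members share 1 pair of arrays.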
